A study of Mus musculus with 2 samples.

Results

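The genes described here encode the alcohol dehydrogenases (Adh), aldehyde dehydrogenases (Aldh), aldo-keto reductases (Akr), retinol dehydrogenases (Rdh) and their short-chain relatives (Dhrs), compared between a Fabp4-/- and a WT mouse liver tumor library. They were picked by a name rule, as the protein-coding genes whose symbol starts with 1 of these 5 stems followed by a digit. The rule was chosen with earlier results of these data known. This gave 65 of the 48526 genes in the table, of which 22098 are protein coding: 5 Adh, 21 Aldh, 17 Akr, 12 Rdh and 10 Dhrs genes. Of the 65, 53 reached the minimum of 1 TPM in the higher library (TPM is the abundance of transcripts per unit length, scaled to the same total in each library) and are called measured below. The other 12 stayed at or below 0.39 TPM, and 5 of them, Akr1cl, Rdh8, Rdh19, Dhrs2 and Dhrs7c, were at 0 in both libraries. The measured members nearest the minimum were Aldh3b3 (1.43 TPM in its higher library) and Dhrs9 (1.98 TPM).

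These enzymes move hydrogen between alcohols, aldehydes, ketones and the cofactors NAD and NADP. In hepatocytes, Adh1 oxidises ethanol to acetaldehyde in the cytosol, Aldh2 oxidises acetaldehyde to acetate in mitochondria, and the aldo-keto reductases run the other way, reducing aldehydes and keto steroids with NADPH. The same families handle vitamin A: retinol dehydrogenases oxidise retinol to retinal, and retinal reductases reverse that step. Aldh1a enzymes such as Aldh1a1 and Aldh1a2 oxidise retinal further to retinoic acid, which acts through nuclear receptors.

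The study compared tumors of Fabp4-/- mice, which lack in the whole body a fatty acid carrier that adipocytes and macrophages make, with tumors of WT littermates, to learn what loss of Fabp4 changes in liver cancer on a fatty liver background. Both groups were male mice of the C57BL/6N strain, both were injected with N-nitrosodiethylamine (DEN), a liver carcinogen, at 25 mg/kg and 14 days of age, and both ate a high-fat diet (HFD) for 29 weeks from 6 weeks of age. The polyA RNA of resected tumor nodules was sequenced in 1 library per genotype, and neither the number of mice and nodules in a library nor whether they were pooled is given in the sources used here. With no replicates there is no test and no estimate of the spread between mice, and the 95% confidence intervals (CI) below are exact binomial intervals of the read counts, which cover counting error only.

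The libraries held 59600850 (Fabp4-/-) and 56353665 (WT) estimated read pairs, and the 20 most abundant genes took 36.8% of them in Fabp4-/- and 28.2% in WT. Fabp4 (chromosome 3 of mm10, 10204088 to 10208576), the targeted gene, had 1 read pair in the Fabp4-/- library and 1786 in the WT library, 249-fold to 54854-fold lower by its CI. Of 8 hepatocyte markers listed for this comparison, all 8 were measured and together stood at 203188 TPM (Fabp4-/-) and 157673 TPM (WT), with 2 at least 2-fold higher and 0 lower in normalised counts, the main scale used here. All marker lists were drawn up with earlier results of these data known. On that scale 4.78% of all measured genes were at least 2-fold higher in Fabp4-/- and 6.26% at least 2-fold lower. All 8 periportal hepatocyte markers were at least 2-fold higher in Fabp4-/- (sums of 1649 TPM in Fabp4-/- and 423 TPM in WT), and 6 of 8 pericentral markers were at least 2-fold lower (784 TPM in Fabp4-/- and 3490 TPM in WT). The 5 markers of T and NK cells summed to 4.50 TPM in Fabp4-/- and 47.7 TPM in WT, each past 2-fold on the lower side, as was 1 of 4 measured stellate cell markers of 7 (117 TPM in Fabp4-/- and 223 TPM in WT for the list). Of 4 cholangiocyte markers 2 were at least 2-fold lower, while 2 of 5 macrophage markers and 1 of 5 endothelial markers were at least 2-fold higher, and 0 of either list lower. In TPM 1 hepatocyte, 1 macrophage and 0 endothelial markers were at least 2-fold higher, and 8 pericentral markers were at least 2-fold lower. The macrophage marker was Marco, at 1.93 TPM in Fabp4-/- and 0.51 TPM in WT. The counts of the other lists were the same in TPM. The macrophage list summed to 65.8 TPM in Fabp4-/- and 72.7 TPM in WT, with Adgre1 and Csf1r below 0 on both scales, and the endothelial list to 45.6 TPM in either library. Among the 5 adipocyte markers, Lep was at 0 in both libraries, Adipoq and Plin1 had 0 read pairs in Fabp4-/- and 1 each in WT, and Cfd had 65 in Fabp4-/- and 42 in WT, the last of the list being Fabp4 itself. In bulk tumor RNA, fewer cells of a type and less RNA per cell cannot be told apart, and the part of these marker differences in the values below was not tested.

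Levels are given in TPM and ratios in normalised counts, the authors' read counts per gene divided by 1 size factor per library, after adding 10. The CIs are of the read counts without the added 10, which draws the ratios of low members towards no difference. The choice of scale matters: over the 13557 measured genes of the table, the median log2 ratio of Fabp4-/- over WT was 0.04 in normalised counts and -0.46 in TPM. A member near 0 on one scale can therefore lie on the other side of 0 on the other, and 22 of the 53 members did. The TPM ratio, after adding 0.5, is given beside the ratio of normalised counts for most members named below.

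In normalised counts, 6 members were at least 2-fold higher in Fabp4-/- (11.3% of 53, against 4.78% of all measured genes and 4.36% of the protein-coding ones): Aldh1b1, Akr1d1, Aldh3b3, Rdh11, Aldh1a7 and Aldh1l1. Another 3 were at least 2-fold lower (5.66%, against 6.26% of all measured genes and 5.9% of the protein-coding ones): Rdh9, Aldh1a2 and Akr1b7. The remaining 44 lay within 2-fold. In TPM, 3 members were at least 2-fold higher (5.66%, against 2.18% and 1.53%), Aldh1b1, Akr1d1 and Rdh11, and 8 were at least 2-fold lower (15.1%, against 14.2% and 13.3%): Rdh9, Aldh1a2, Akr1b7, Aldh18a1, Akr1b10, Akr1c6, Aldh3a2 and Aldh1l2. Of all measured genes, 648 were higher and 849 lower by 2-fold in normalised counts, and 296 higher and 1928 lower in TPM. The shares of lower members were thus close to the background on both scales. The members past 2-fold under all 5 scalings tried (normalised counts, TPM, median centring, upper quartile scaling, and equal totals without the 20 most abundant genes) were Aldh1b1, Akr1d1 and Rdh11 on the higher side and Rdh9, Aldh1a2 and Akr1b7 on the lower side. Aldh1l1 was just inside the limit, at a log2 ratio of 1.003, and Rdh7 (0.96) and Aldh8a1 (0.94) were just outside it.

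**Figure D1:**
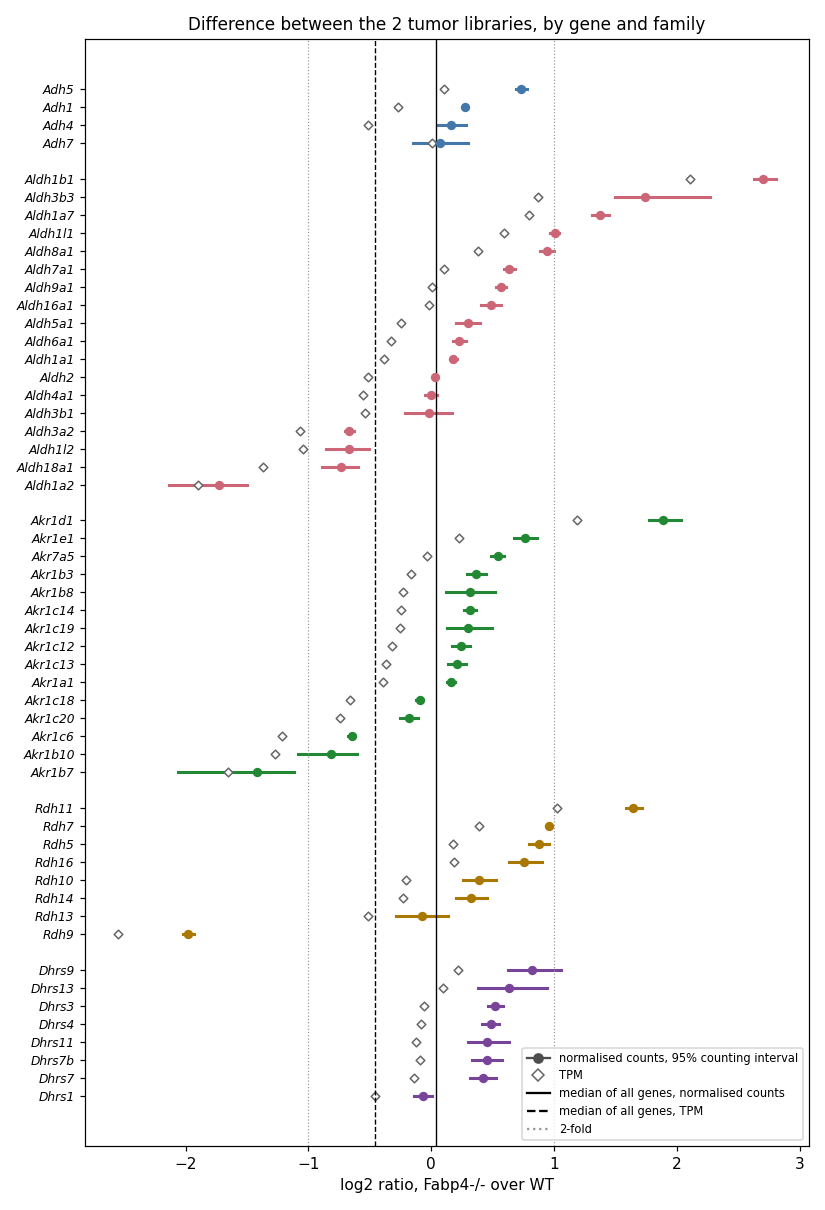
Log2 ratio of Fabp4-/- over WT for the 53 measured members, grouped by family and ordered by ratio. Filled circles with bars are normalised counts with the 95% counting interval, open diamonds are TPM, the solid and dashed vertical lines are the medians of all 13557 measured genes on each scale (0.04 and -0.46) and the dotted lines mark 2-fold. Aldh1b1 is farthest to the right at 2.70 and Rdh9 farthest to the left at -1.98.

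The median log2 ratio of the 53 members was 0.31 in normalised counts and -0.23 in TPM, above the all-gene median of the same scale in both cases, and 38 of 53 members were above that median on either scale. Expressed genes in general leaned the same way, since protein-coding genes at 10 TPM or more that are no members had a median of 0.15 in normalised counts and -0.39 in TPM, against 0.36 and -0.17 for the 39 members at that level. By family, the medians in normalised counts were 0.22 for 4 Adh genes, 0.26 for 18 Aldh genes, 0.24 for 15 Akr genes, 0.57 for 8 Rdh genes and 0.47 for 8 Dhrs genes. In TPM all 5 family medians were below 0, between -0.32 for Akr and -0.01 for Rdh, so no family direction held on both scales.

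**Figure D2:**
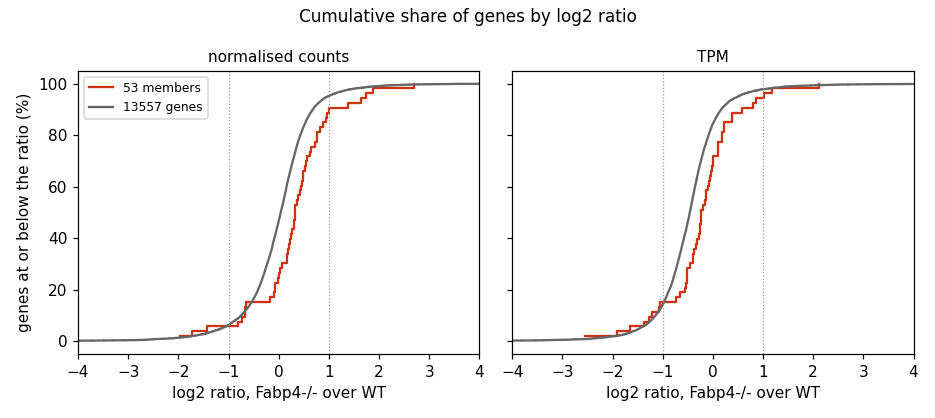
Cumulative share of genes (vertical axis, percent) at or below each log2 ratio of Fabp4-/- over WT (horizontal axis) for the 53 measured members and for all 13557 measured genes, in normalised counts on the left and in TPM on the right. The members' curve runs to the right of the all-gene curve through the middle of both panels, with medians of 0.31 against 0.04 and of -0.23 against -0.46, and meets it on the lower side.

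Some of these genes were abundant in both tumors. The 65 members summed to 5049 TPM in Fabp4-/- and 6513 TPM in WT, 0.505% and 0.651% of all TPM. Adh1 and Aldh2 alone made up 39.8% of that sum in Fabp4-/- and 40.4% in WT. Above 100 TPM stood 10 members in Fabp4-/- and 12 in WT. The Aldh genes summed to 1772 TPM in Fabp4-/- and 2236 TPM in WT, the Adh genes to 1255 TPM in Fabp4-/- and 1481 TPM in WT, and the Akr genes to 1194 TPM in Fabp4-/- and 1870 TPM in WT. The Rdh genes summed to 580 TPM in Fabp4-/- and 639 TPM in WT, and the Dhrs genes to 249 TPM in Fabp4-/- and 288 TPM in WT. In TPM the Akr sum differed most between the libraries (log2 ratio of the sums -0.65), mostly through Akr1c6 and Akr1c18, but in normalised counts it differed least of the 5 families (-0.05, against 0.25 to 0.38 for the others).

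**Figure D3:**
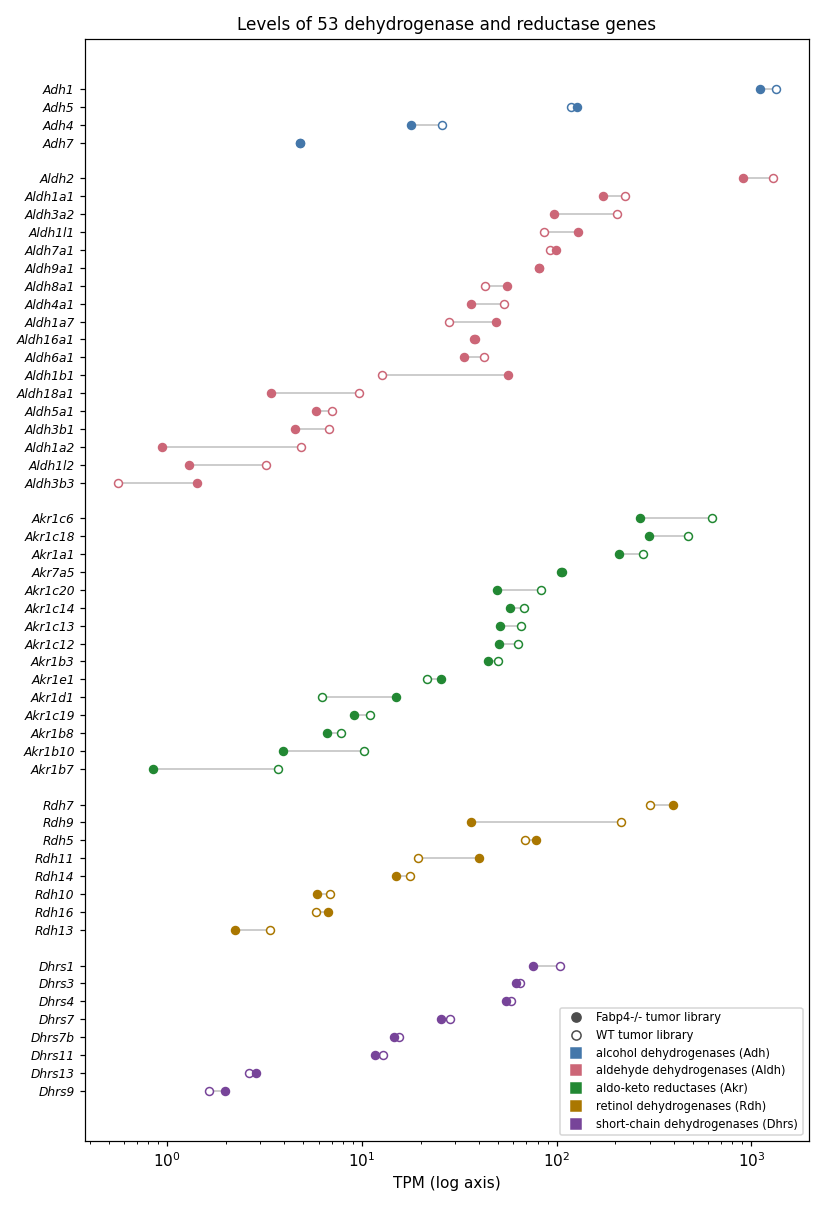
TPM (log axis) of the 53 measured members in the Fabp4-/- library (filled circles) and the WT library (open circles), by family and ordered by level. Adh1 and Aldh2 head the plot at 906 to 1333 TPM, and the longest connecting lines belong to Rdh9, Aldh1a2, Akr1b7 and Aldh1b1.

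The lowest ratio of all members belonged to Rdh9, a short-chain dehydrogenase of the mouse Rdh16 family, whose members oxidise retinol and hydroxysteroids. Rdh9 (ENSMUSG00000056148.8, chromosome 10, mm10, start 127776386, plus strand) was at 36.2 TPM in Fabp4-/- and 214 TPM in WT, from 4711 and 23887 estimated read pairs. By TPM it ranked 2062 among all genes in Fabp4-/- and 445 in WT. Its log2 ratio was -1.98 (95% CI -2.02 to -1.93) in normalised counts, 3.94-fold lower, and -2.55 in TPM. Its neighbour Rdh7 (ENSMUSG00000040134.8), a retinol dehydrogenase of the same family on the minus strand 108 kb away, was the most abundant member of its family, at 395 TPM in Fabp4-/- and 302 TPM in WT. The log2 ratio of Rdh7 was 0.96 (95% CI 0.93 to 0.98) in normalised counts and 0.39 in TPM. The TPM of Rdh7 was thus 10.9 times that of Rdh9 in Fabp4-/- and 1.41 times in WT, and the gap between their log2 ratios was 2.93 in normalised counts and 2.94 in TPM.

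Both are members of a run of similar genes on chromosome 10, so shared reads bear on the contrast. The coding sequences of Rdh9 and Rdh7 were 85.1% identical, and no stretch of 100 bases of the Rdh9 transcript also occurred in Rdh7. Of all such stretches in Rdh9, 86.5% also occurred in Gm28046 (Rdh16f1 in the reference), a gene model that overlaps Rdh9 and was at 0.12 TPM in Fabp4-/- and 0.50 TPM in WT, and 6.43% in other genes. Rdh16, 96.3% identical to Rdh9 in coding sequence, was at 6.71 TPM in Fabp4-/- and 5.84 TPM in WT (log2 ratio 0.76 in normalised counts). Summed over Rdh9, Rdh1, Rdh16 and Gm28046, the level was 43.1 TPM in Fabp4-/- and 221 TPM in WT, with a log2 ratio of -1.73 (95% CI -1.77 to -1.69), so the sum of these similar genes was lower too. Over 8 genes of the locus the sum was 586 TPM in Fabp4-/- and 632 TPM in WT, a log2 ratio of 0.20 in normalised counts and -0.11 in TPM. BC089597 (Rdh16f2 in the reference), a relative in the same locus that the name rule missed, was at 147 TPM in Fabp4-/- and 109 TPM in WT, a log2 ratio of 0.999 (95% CI 0.95 to 1.05).

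The stretches upstream of Rdh9 and Rdh7 are shown because these neighbours differed most within 1 cluster, together with that of Aldh1b1, the member with the largest ratio. They are RefSeq sequences of GRCm38.p6, 5′ to 3′ on the strand of the gene, up to 250 bases before the start and ending where the transcribed part begins: chr10:127776155-127776385 (plus strand) for Rdh9, chr10:127888818-127888983 (minus strand) for the first of the RefSeq starts of Rdh7, and chr4:45798772-45799021 (plus strand) for Aldh1b1. Capitals mark the core motif of TCF/LEF factors, the DNA-binding partners of β-catenin (CTTTGA, or TCAAAG on the other strand).
Rdh9: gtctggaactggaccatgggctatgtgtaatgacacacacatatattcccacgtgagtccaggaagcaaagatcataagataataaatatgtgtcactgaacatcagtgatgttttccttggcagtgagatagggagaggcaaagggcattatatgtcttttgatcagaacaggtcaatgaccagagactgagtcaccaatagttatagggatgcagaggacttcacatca
Rdh7: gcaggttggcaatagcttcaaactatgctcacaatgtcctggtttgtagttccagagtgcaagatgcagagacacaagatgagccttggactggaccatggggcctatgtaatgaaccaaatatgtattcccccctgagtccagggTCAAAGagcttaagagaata
Aldh1b1: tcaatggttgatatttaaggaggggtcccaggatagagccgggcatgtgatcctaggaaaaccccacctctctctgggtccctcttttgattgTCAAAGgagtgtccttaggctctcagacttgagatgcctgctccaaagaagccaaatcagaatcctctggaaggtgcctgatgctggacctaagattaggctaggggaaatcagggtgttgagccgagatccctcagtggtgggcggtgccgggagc
The Rdh7 and Aldh1b1 sequences printed held this motif and the Rdh9 sequence did not, nor did the upstream stretch of the other RefSeq start of Rdh7 (chr10:127889248-127889497, minus strand). Over 85 aligned columns the Rdh9 and Rdh7 sequences were 76.5% identical. Motifs were counted over the whole 250 bases before each RefSeq start, also where the deposited gene begins inside or ahead of them. CTTTGA, on either strand, occurred in 13.8% of all 32851 RefSeq promoters of mouse genes and in 18.3% of the 60 promoters that matched members, which came from 53 of all 65. It was present in 4 of the 6 members at least 2-fold higher in Fabp4-/-: Aldh1a7, Aldh1b1, Aldh3b3 and Rdh11. In Aldh3b3 it lay only inside the 163 bases that the deposited gene already covers. For Rdh11 the searched bases lay wholly inside the deposited gene, so its match is not upstream of that gene. The motif was present in 0 of the 3 lower members and in 6 of the 37 other measured members that matched. The nuclear receptor motif AGGTCA occurred in 14.0% of all promoters and in 21.7% of those of members. Among them were 3 of the 6 higher members (Akr1d1, Aldh1l1 and Rdh11), 2 of the 3 lower ones (Rdh9 and Akr1b7) and 8 others, Rdh7 included. For Aldh1l1 and Rdh11 the searched bases lay wholly inside the deposited genes, so these matches are not upstream of them. In Rdh7 the motif lay only before the other start, whose sequence is not printed. The antioxidant response motif TGANNNNGC occurred in 35.2% and 33.3%, with 3 of the 6 higher members (Aldh1a7, Aldh1b1 and Rdh11), 1 of the 3 lower ones (Aldh1a2) and 11 others. Here too the match of Rdh11 lay inside the deposited gene. Both strands were searched, and occurrences of different motifs may overlap. Such matches describe letters in these windows and not bound sites.

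Among the other retinol-oxidising members, Rdh5, known as a retinol dehydrogenase of the retinal pigment epithelium, was at 78.2 TPM in Fabp4-/- and 69.1 TPM in WT, a log2 ratio of 0.87 in normalised counts and 0.18 in TPM. Dhrs9 and Rdh10, which also oxidise retinol, were below 7 TPM in both libraries. Of 6 measured members of this role, 0 were at least 2-fold higher and Rdh9 alone was lower.

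The enzymes of the reverse step, from retinal to retinol, had their highest ratio in Rdh11 (ENSMUSG00000066441.14, chromosome 12, start 79174337, minus strand), a microsomal retinal reductase. Rdh11 was at 39.7 TPM in Fabp4-/- and 19.3 TPM in WT, from 6442 and 2645 read pairs. Its log2 ratio was 1.64 (95% CI 1.58 to 1.71) in normalised counts, 3.12-fold higher, and 1.02 in TPM. It was the only 1 of 5 measured retinal reductases past 2-fold. Dhrs3, the retinal reductase induced by retinoic acid, was at 62.1 TPM in Fabp4-/- and 64.6 TPM in WT, a log2 ratio of 0.52 in normalised counts and -0.06 in TPM. Dhrs1, whose substrates are less well known, was the most abundant Dhrs member, at 75.5 TPM in Fabp4-/- and 104 TPM in WT, with a log2 ratio of -0.07 (95% CI -0.14 to 0.00) in normalised counts and -0.46 in TPM. Dhrs4, a peroxisomal carbonyl and retinal reductase, was at 55.0 TPM in Fabp4-/- and 58.3 TPM in WT (log2 ratio 0.48 in normalised counts, -0.08 in TPM), and Rdh14 and Rdh13, placed with the retinal reductases, had log2 ratios of 0.33 and -0.08 in normalised counts and of -0.23 and -0.51 in TPM. None of the 8 measured Dhrs genes passed 2-fold on either scale.

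Members grouped under the oxidation of retinal to retinoic acid lay on both sides. The grouping is by textbook role, and whether each of them acts on retinal was not examined. Aldh1a1, the main cytosolic retinal dehydrogenase of the liver, was at 172 TPM in Fabp4-/- and 226 TPM in WT, a log2 ratio of 0.18 in normalised counts and -0.39 in TPM. Its rodent paralogue Aldh1a7 (ENSMUSG00000024747.3, chromosome 19, start 20692953, minus strand) was at 49.1 TPM in Fabp4-/- and 28.0 TPM in WT, from 4918 and 2440 read pairs. The log2 ratio of Aldh1a7 was 1.37 in normalised counts and 0.80 in TPM, above that of Aldh1a1 by 1.19 and 1.18. Their coding sequences were 91.6% identical, yet under 0.1% of the 100-base stretches of either transcript occurred in the other, and the sum of both genes was 222 TPM in Fabp4-/- and 254 TPM in WT (log2 ratio 0.37 in normalised counts, -0.19 in TPM). Aldh1a2, the retinal dehydrogenase of mesenchymal cells and of the embryo, was the lowest of the 4 measured members of this role and was singled out on seeing its values. It was at 0.94 TPM in Fabp4-/- and 4.88 TPM in WT, from 104 and 470 read pairs, a log2 ratio of -1.73 (95% CI -2.13 to -1.50), 3.32-fold lower. The stellate cell marker list, which covers the retinoid-storing cells of the liver, stood at 117 TPM in Fabp4-/- and 223 TPM in WT, and its median log2 ratio was -0.05 in normalised counts and -0.57 in TPM. Reln alone was at least 2-fold lower, Dcn, Des and Colec11 lay between -0.11 and 0.11 in normalised counts and between -0.68 and -0.44 in TPM, and Lrat was below the minimum at 0.85 TPM in Fabp4-/- and 0.84 TPM in WT. The part of this list in the Aldh1a2 difference was not tested.

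Genes that carry, bind or store retinoids were mostly within 2-fold. Of 23 retinoid handling genes found in the table, 13 were measured, with a median of 0.16 in normalised counts and -0.35 in TPM. Rxrg alone was at least 2-fold higher and Rbp2 alone at least 2-fold lower in normalised counts (7.69% each, against 4.78% and 6.26% of all measured genes). Both were low. Rxrg had 147 read pairs in Fabp4-/- and 84 in WT, and its log2 ratio was 0.45 in TPM, within 2-fold. Rbp2 had 12 read pairs in Fabp4-/- and 44 in WT, with a log2 ratio of -1.35 in TPM. Rbp4, the retinol carrier that hepatocytes secrete, was at 3829 TPM in Fabp4-/- and 5072 TPM in WT. Its log2 ratio was 0.16 in normalised counts and -0.41 in TPM.

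The ethanol-oxidising pair Adh1 and Aldh2 stayed within 2-fold. Adh1 (ENSMUSG00000074207.10, chromosome 3, start 138260991, plus strand) was at 1106 TPM in Fabp4-/- and 1333 TPM in WT, from 67056 and 71556 read pairs. With that depth its log2 ratio of 0.27 in normalised counts had a CI of 0.25 to 0.29, and the TPM ratio was -0.27, so the sign of its difference depended on the scale. Aldh2 (ENSMUSG00000029455.14, chromosome 5, start 121566027, minus strand) was at 906 TPM in Fabp4-/- and 1296 TPM in WT, with log2 ratios of 0.03 in normalised counts and -0.52 in TPM. Both were among the 105 most abundant genes of each library by TPM. Adh5, which oxidises the glutathione adduct of formaldehyde, was at 127 TPM in Fabp4-/- and 118 TPM in WT (log2 ratio 0.73 in normalised counts, 95% CI 0.69 to 0.78, and 0.11 in TPM), and the stomach enzyme Adh7 was at 4.83 TPM in Fabp4-/- and 4.81 TPM in WT. Adh4, which also takes up retinol and long-chain alcohols, was at 17.9 TPM in Fabp4-/- and 25.8 TPM in WT (log2 ratio 0.16 in normalised counts, -0.51 in TPM). The log2 ratio of Adh7 was 0.07 in normalised counts, with a CI of -0.15 to 0.30 that spans 0.

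Of the flanking steps of ethanol metabolism, outside the families described, 2 genes passed 2-fold. Cyp2e1, the microsomal ethanol oxidase and also 1 of the pericentral markers above, was at 621 TPM in Fabp4-/- and 2783 TPM in WT (log2 ratio -1.60 in normalised counts). Acss2, which turns acetate into acetyl-CoA in the cytosol, was at 48.0 TPM in Fabp4-/- and 11.6 TPM in WT (log2 ratio 2.62). The other measured genes of this list of 5 stayed within 2-fold in normalised counts, catalase (Cat) at a log2 ratio of 0.73 (0.17 in TPM) and Acss1 at -0.91.

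Aldh1b1, the mitochondrial relative of Aldh2, had the largest ratio of all 53 members. Aldh1b1 (ENSMUSG00000035561.5, chromosome 4, start 45799022, plus strand) was at 56.4 TPM in Fabp4-/- and 12.7 TPM in WT, from 6339 and 1245 read pairs. Its log2 ratio was 2.70 (95% CI 2.62 to 2.80) in normalised counts, 6.50-fold higher, and 2.11 in TPM. Its coding sequence was 69.4% identical to that of Aldh2, with 20 bases as the longest identical run, and its TPM was 0.0623 times that of Aldh2 in Fabp4-/- and 0.00981 times in WT. Aldh3b3, also singled out on seeing its values, was a low member at 1.43 TPM in Fabp4-/- and 0.56 TPM in WT, with a wide CI around its log2 ratio of 1.74 (1.49 to 2.26) and 0.86 in TPM. Aldh3a2, the fatty aldehyde dehydrogenase of the endoplasmic reticulum, pointed the other way, at 96.7 TPM in Fabp4-/- and 204 TPM in WT, past 2-fold in TPM (log2 ratio -1.07) but not in normalised counts (-0.67).

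The folate enzymes Aldh1l1 and Aldh1l2, cytosolic and mitochondrial forms of formyltetrahydrofolate dehydrogenase, lay on opposite sides. Aldh1l1 (ENSMUSG00000030088.15, chromosome 6, start 90486427, plus strand) was at 129 TPM in Fabp4-/- and 85.8 TPM in WT, from 16376 and 10507 read pairs, a log2 ratio of 1.003 (95% CI 0.97 to 1.04) in normalised counts and 0.59 in TPM. Aldh1l2 was at 1.29 TPM in Fabp4-/- and 3.20 TPM in WT, a log2 ratio of -0.67 in normalised counts and -1.05 in TPM. Of the 6 members that oxidise or form aldehydes of amino acids and GABA, 0 passed 2-fold in normalised counts. The lowest of them was Aldh18a1, which makes proline precursors from glutamate, at 3.42 TPM in Fabp4-/- and 9.64 TPM in WT (log2 ratio -0.73 in normalised counts, -1.37 in TPM). Aldh4a1, the mitochondrial enzyme of proline breakdown, was at 36.4 TPM in Fabp4-/- and 53.8 TPM in WT, and its log2 ratio of 0.00 in normalised counts was -0.56 in TPM. Aldh9a1, which acts in carnitine synthesis, was at 81.4 TPM in Fabp4-/- and 81.2 TPM in WT, equal in TPM to within 0.01 of a log2 unit and at 0.57 in normalised counts. Aldh6a1, of valine breakdown, was at 33.4 TPM in Fabp4-/- and 42.2 TPM in WT, and Aldh5a1, which clears the semialdehyde of GABA, at 5.81 TPM in Fabp4-/- and 6.99 TPM in WT. Both had small positive log2 ratios in normalised counts (0.23 and 0.30) and negative ones in TPM (-0.33 and -0.25).

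Steroid and bile acid aldo-keto reductases included the most abundant Akr genes and the Akr gene with the highest ratio. Akr1d1 (ENSMUSG00000038641.12, chromosome 6, start 37530173, plus strand), the steroid reductase that acts in bile acid synthesis, was at 14.9 TPM in Fabp4-/- and 6.27 TPM in WT, from 1953 and 674 read pairs. Its log2 ratio was 1.88 (95% CI 1.77 to 2.03) in normalised counts, 3.68-fold higher, and 1.18 in TPM. Akr1c6, a mouse hydroxysteroid dehydrogenase that acts on sex steroids, was at 268 TPM in Fabp4-/- and 625 TPM in WT, with a log2 ratio of -0.65 (95% CI -0.67 to -0.62) in normalised counts and -1.22 in TPM, so that it passed 2-fold on the TPM scale only. Akr1c18, which inactivates progesterone, was at 297 TPM in Fabp4-/- and 471 TPM in WT (log2 ratio -0.10 in normalised counts, -0.66 in TPM). The Akr1c genes lie with Akr1e1 in a run of 9 genes over 560 kb of chromosome 13, whose measured members ranged from -0.65 to 0.76 in normalised counts. Akr1c12 and Akr1c13, 96.2% identical in coding sequence, share reads, and their sum was 101 TPM in Fabp4-/- and 129 TPM in WT (log2 ratio 0.22 in normalised counts, -0.35 in TPM).

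The aldose reductase-like genes differed along their cluster of 4 genes on chromosome 6. Akr1b3, the mouse aldose reductase, and Akr1b8, an inducible relative, were at log2 ratios of 0.36 and 0.31 in normalised counts. Their neighbours Akr1b10 and Akr1b7 were at -0.82 and -1.42. In TPM all 4 were below 0, at -0.17 for Akr1b3, -0.23 for Akr1b8, -1.27 for Akr1b10 and -1.65 for Akr1b7, so the order held on both scales and the split around 0 did not. Akr1b8 was at 6.59 TPM in Fabp4-/- and 7.81 TPM in WT, from 411 and 423 read pairs, with a CI of 0.12 to 0.52 in normalised counts. Akr1b10 was at 3.94 TPM in Fabp4-/- and 10.2 TPM in WT. Akr1b7, another gene singled out in that way, was at 0.84 TPM in Fabp4-/- and 3.71 TPM in WT, from 49 and 188 read pairs, 2.68-fold lower with a CI of -2.06 to -1.12 on the log2 scale. Outside this cluster, the general aldehyde reductase Akr1a1 was at 210 TPM in Fabp4-/- and 277 TPM in WT (log2 ratio 0.16 in normalised counts, -0.40 in TPM), and Akr7a5, whose relatives reduce aflatoxin aldehydes, at 105 TPM in Fabp4-/- and 107 TPM in WT (0.54 and -0.03). Of the 7 measured aldose and aldehyde reductases, Akr1b7 alone passed 2-fold in normalised counts. The ratio of Akr1b8 to Akr1b7 in TPM was 7.85 in Fabp4-/- and 2.11 in WT. Akr1b3 shares 50.6% of its 100-base stretches with other genes, and how far this affects its value was not tested.

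**Figure D4:**
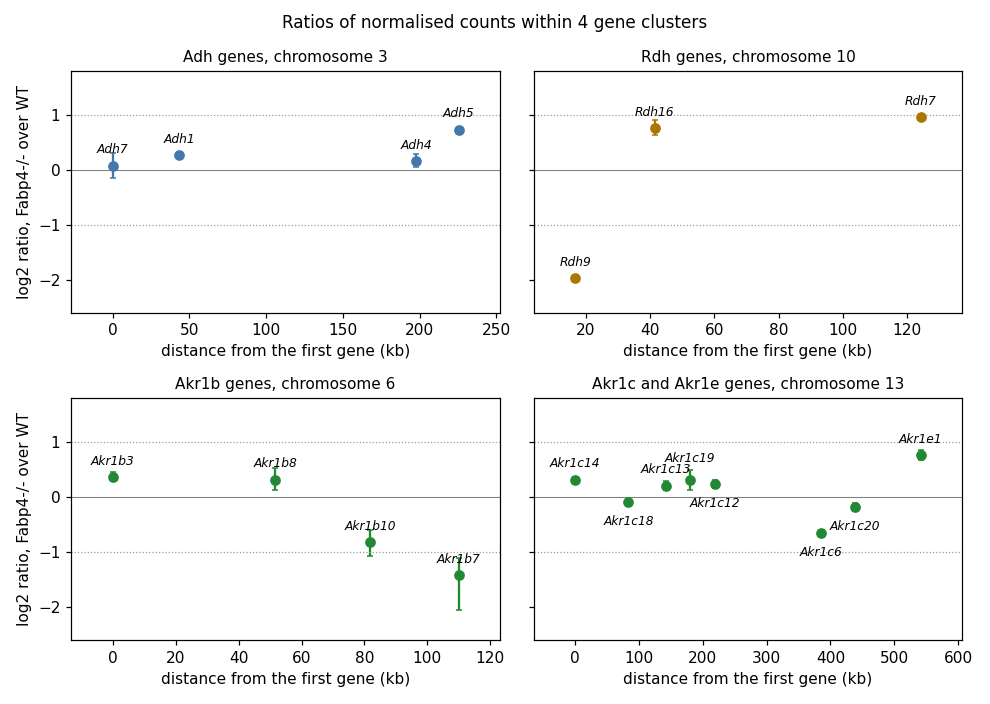
Log2 ratio of Fabp4-/- over WT in normalised counts against the distance in kb from the first gene of the cluster, for the measured members of 4 gene clusters. Bars are 95% counting intervals, the solid line is 0 and the dotted lines mark 2-fold. The Adh genes lie between 0.07 and 0.73, Rdh9 at -1.98 sits apart from Rdh16 and Rdh7, and the Akr1b genes run from 0.36 down to -1.42, all 4 being below 0 in TPM.

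The Adh genes, by contrast, varied little along their cluster. The 5 Adh members span 238 kb of chromosome 3 (138217760 to 138455499), and the 4 measured ones had log2 ratios between 0.07 and 0.73 in normalised counts and between -0.51 and 0.11 in TPM. Across the 65 members, 17 shared at least 1 stretch of 100 bases with a transcript of another gene and 8 shared over 10% of theirs. Besides Rdh9, Akr1b3, Akr1c12 and Akr1c13, these included Aldh4a1 (42.6%), Rdh5 (13.7%) and Aldh3b2 (14.0%).

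Some Akr1b genes are known targets of NRF2, the regulator of the response to electrophiles, and 18 other NRF2 targets were examined beside them. Of these, Gsta1 alone was at least 2-fold higher and Cbr3, Slc7a11, Abcc4 and Gpx2 were at least 2-fold lower in normalised counts (5.56% and 22.2% of the list, against 4.78% and 6.26% of all measured genes). In TPM 0 were higher and 6 lower (33.3%, against 14.2%). The median of the list was -0.33 in normalised counts and -0.88 in TPM, below the all-gene medians of 0.04 and -0.46. Nqo1, the quinone reductase often read as the response's marker, was at 9.44 TPM in Fabp4-/- and 20.8 TPM in WT. Its log2 ratio was -0.57 in normalised counts and -1.10 in TPM, past 2-fold on the TPM scale only. The part of NRF2 in the Akr1b values was not tested.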

How the data were processed

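Per the labels, polyA RNA of liver tumors was sequenced in paired reads. Alignment (STAR 2.5.2), quantification (RSEM 1.2.31) and the build mm10 are credited to the submitters' processing notes, which list no settings. The labels and the study's methods name different RNA kits and sequencers, and neither states the strand setting. The authors deposited TPM and normalised counts, a signal made of the RSEM estimates of reads, scaled by 1 factor in each library. The most frequent value above 0 (1.13 in Fabp4-/-, 0.882 in WT) was taken as 1 read pair, and 86.5% of values above 0 in Fabp4-/- and 86.0% in WT were then whole to within 0.0001. The 5 columns of the authors' own comparison (fold changes, direction, probability and FDR) were not used.

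Ratios are log2 of (normalised count + 10), Fabp4-/- over WT, for genes at 1 TPM or more in the higher library, and 2-fold was the limit for counting. TPM ratios used a pseudocount of 0.5. No replicate test was possible. CIs are 95% Clopper-Pearson intervals of estimated read pairs and cover counting error only, since amplified copies are not told apart. Unlike the ratios, they leave out the pseudocount of 10. The ratio and interval were tested on simulated data. TMM scaling, foreseen for raw or expected counts, was not run because the table lists neither as such. The alternatives were TPM, median centring, upper quartile scaling, equal totals once the 20 most abundant genes were left out, other pseudocounts (1 and 50), dropping the minimum or raising it to 5 TPM, and limits of 1.5-fold and 4-fold.

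The members and all gene lists were chosen with earlier results of these data known. Genes were named by rule: Adh1, Aldh2 and Akr1b8, members at 5 TPM or more past 2-fold, and the 2 most abundant members of each of the 5 families. Others are named within their role group. Shared stretches and coding sequences came from GENCODE M21 (GRCm38) and promoters from RefSeq (GRCm38.p6), where 53 of 65 members had a promoter. No protein sequences were used. Software was biopython 1.88, matplotlib 3.10.9, scipy 1.17.1, numpy 2.4.6 and pandas 2.3.3 under Python 3.11.15.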

Additional observations from a re-analysis of the deposited data

Results flagged for a closer look

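Rows with a matching name that are not protein coding lay outside the comparison, and 4 of them held more than the 3 read pairs taken as the limit of detection. The pseudogene Adh6-ps1, in the Adh cluster of chromosome 3, had 612 estimated read pairs in Fabp4-/- and 644 in WT (4.41 and 5.56 TPM), a log2 ratio of 0.29 (95% CI 0.13 to 0.45) in normalised counts and -0.30 in TPM, so its sign depended on the scale as that of Adh1 did. The pseudogene Rdh18-ps had 5.04 read pairs in Fabp4-/- and 4.04 in WT. Adh6b had 4 in Fabp4-/- and 0 in WT. Dhrs13os, annotated antisense to Dhrs13, had 1 in Fabp4-/- and 13 in WT. Dhrs13os spans 78030012 to 78032665 of chromosome 11 and Dhrs13 begins at 78032280, and without a known strand setting reads in that overlap cannot be told apart.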

How the results depend on the processing

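In TPM the counts of members past 2-fold were 3 higher and 8 lower, against 6 and 3 in normalised counts, and the median was -0.23 against 0.31. Equal totals without the 20 most abundant genes gave 5 higher, 4 lower and a median of 0.061. A minimum of 5 TPM left 45 members and 1 lower, Rdh9. A limit of 1.5-fold gave 15 higher and 8 lower, and one of 4-fold gave 1 and 0. Median centring and upper quartile scaling gave 5 higher and 3 lower each, pseudocounts of 1 and 50 gave 6 and 3, and no minimum gave 7 and 4 of 60 members, with medians between 0.27 and 0.32 over these settings. Across the 5 scalings, 23 of 53 members changed sign, 16 were above 0 and 14 below 0 in all, and the 6 members past 2-fold in all were the same ones named above. Of 168 alternative values of named genes and families, 111 differed from the main value by less than counting error and 57 by more, 16 changed sign and 10 of these did so in TPM. Named genes could not differ when the minimum was dropped or raised to 5 TPM, since all of them were at 5 TPM or more. Those values count among the 111. Family medians were judged by the median counting error of single members and not by an error of their own. No paired analysis was possible because the comparison holds 1 library of either kind. Depth did not limit the abundant members, while Akr1b7, with 49 read pairs in Fabp4-/-, had the fewest reads of a measured member. The absence of replicates limits every difference given.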
